A study of Mus musculus with 19 samples.

Results

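The respiratory chain of the mitochondrial inner membrane is built from subunits encoded in the nucleus and in mitochondrial DNA, and its nuclear-encoded subunit genes were followed here in neoplastic cells of mouse lung tumors. Members were the genes whose symbols belong to the Nduf (complex I), Sdh (complex II), Uqcr and *Cyc1* (complex III), Cox4 to Cox8 (complex IV) and Atp5 (complex V) families and whose expected count was at least 10 in at least 5 of the 19 libraries. This gave 78 of the 53558 genes in the files, with 36 in complex I, 4 in complex II, 9 in complex III, 13 in complex IV and 16 in complex V. *Ndufa4* was placed in complex IV, with which its protein is found, and *Ndufab1* in complex I. The 13 subunits encoded by mitochondrial DNA were not analysed here.

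All mice carried a Cre-dependent oncogenic allele, a Cre-dependent tdTomato reporter at *Rosa26* and a Cre-dependent Cas9 at *H11*, on a mixed C57BL/6J:129 background, and were 6 to 12 weeks of age when tumors were started. Lentiviral vectors that express Cre and sgRNAs were given through the trachea, so that the oncogene, the reporter and Cas9 are switched on in the same transduced cells. The sgInert vector (sgNeo1/sgNT1/sgNeo2) gave 7 libraries, the vector against *Cebpa*, *Cebpb* and *Cebpd* (sgCebpa/b/d), which encode C/EBP transcription factors of alveolar type II cells, gave 7, and the vector against *Lkb1* (gene symbol *Stk11*), which encodes a tumor suppressor kinase, gave 5. Tumors grew for 17 weeks, and neoplastic cells were sorted for RNA sequencing. Antibodies against CD45, CD31, F4/80 and Ter119 were used to exclude hematopoietic and endothelial cells. The paper describes the neoplastic cells it sorted in other experiments as positive for tdTomato. The comparisons ask how the loss of C/EBP factors and the loss of LKB1 each change the transcriptome of these tumors, and both use the same sgInert libraries.

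Libraries held 2760722 to 9944131 counts. The sgLkb1 libraries were all female, sgCebpa/b/d had 4 female and 3 male libraries and sgInert had 3 and 4. Library titles carry a number beginning with MT (3 sgInert, 4 sgCebpa/b/d and 3 sgLkb1 libraries), a number beginning with ZR (4 sgInert libraries) or no number (3 sgCebpa/b/d and 2 sgLkb1 libraries), and some MT libraries share a number (2 in sgInert, 3 in sgCebpa/b/d, 2 in sgLkb1), so n counts libraries and not animals. In sgCebpa/b/d the male libraries are those without a number, so sex and title cannot be told apart in that group. *Stk11* had 80 to 152 counts in sgInert libraries and 48, 50, 57, 80 and 127 in sgLkb1 libraries, and was lower in sgLkb1 by a log2 fold change of −1.24 (SE 0.17, edgeR adjusted p = 0.000107). *Cebpa*, *Cebpb* and *Cebpd* were not lower in sgCebpa/b/d libraries (log2 fold changes of 0.73, 1.16 and 0.20), and since Cas9 edits need not lower a transcript, these levels do not check that label. The alveolar type II and epithelial markers fixed for this work (11 genes, *Sftpc* among them) summed to 46300 to 64200 TPM (transcript levels corrected for length and scaled to one library total) in sgInert, to 30100 to 55000 in sgCebpa/b/d libraries and to 38100 to 50500 in those of sgLkb1.

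Complex I takes electrons from NADH, complex II takes them from succinate as part of the citric acid cycle, complex III passes them to cytochrome c, and complex IV hands them to oxygen. The proton gradient that results drives ATP synthesis by complex V. Most subunits are made in every cell, but a few of complex IV exist as alternative isoforms, and one of these carried the main difference in these data. COX6A is made from *Cox6a1* in most tissues and from *Cox6a2* in heart and skeletal muscle. The last 240 coding bases of both (GENCODE transcripts of GRCm38) are shown because the reads of one could be taken for the other only where they match. Capitals mark bases that differ, or have no partner, in the alignment of one with the other.
Cox6a1: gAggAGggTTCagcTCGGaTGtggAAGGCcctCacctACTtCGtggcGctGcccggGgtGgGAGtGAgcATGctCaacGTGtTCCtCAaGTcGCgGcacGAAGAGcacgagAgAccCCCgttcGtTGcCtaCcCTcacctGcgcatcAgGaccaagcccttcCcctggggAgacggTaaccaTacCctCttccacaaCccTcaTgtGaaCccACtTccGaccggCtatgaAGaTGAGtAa
Cox6a2: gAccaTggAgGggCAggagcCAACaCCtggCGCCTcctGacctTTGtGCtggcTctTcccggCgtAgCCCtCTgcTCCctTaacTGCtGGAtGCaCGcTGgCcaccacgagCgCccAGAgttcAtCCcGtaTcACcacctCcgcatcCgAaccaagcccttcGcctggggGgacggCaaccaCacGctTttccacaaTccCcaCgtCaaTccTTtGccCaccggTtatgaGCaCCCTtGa
*Cox6a1* is on the minus strand of chromosome 5 (chr5:115345642-115348981), with 339 coding bases in 3 exons, and *Cox6a2* is on the minus strand of chromosome 7 (chr7:128205435-128206387), with 294 coding bases in 3 exons. They were identical at 184 of 294 aligned coding bases (62.6%), and the longest run shared by both transcripts was 12 bases. *Cox6a2* lies within *Itgad*, which is on the plus strand and whose exon reaches 70 bases into the end of *Cox6a2*. The use of strand in counting is not given in the sources used here, but *Itgad*, an integrin gene, had only 0 to 5 counts per library.

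In each library the 78 genes gave between 0.4385% and 0.5592% of all counts, and their levels ranged widely. The median TPM over the 19 libraries ran from 8.01 for *Ndufa11*, an accessory subunit of complex I, to 794 for *Atp5b*, the catalytic beta subunit of the F1 part of complex V. The median gene had 46.5 TPM in complex II, 96.2 in complex I, 136 in complex III, 169 in complex V and 258 in complex IV. All 78 genes had at least 10 counts in every library and passed the filter on low counts. Of the family members outside the set, *Cox7b2*, *Cox8b* and *Cox8c* had 0 counts in every library (at most 3 counts each are allowed by a count of 0), while *Cox4i2* reached 10 counts in 1 library (at most 14), *Cox7a1* in 1 (at most 11) and *Cox6b2* in 2 (at most 12). Just inside the minimum there was no gene, since every member had 10 counts in all 19 libraries.

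In sgCebpa/b/d libraries most respiratory chain genes were near their sgInert levels, and *Cox6a2* was far below. Against sgInert, 4 of 78 genes were called (5.13%) at an edgeR adjusted p under 0.05, beside 10.1% of all 13986 genes tested. *Atp5g3* was the 1 gene that rose, beside 4.73% of all genes that rose, and *Cox6a2*, *Uqcrq* and *Ndufs4* fell, beside 5.36% of all genes that fell. The median log2 fold change was −0.02 over the members and 0.02 over all genes, with 37 members above 0 and 41 below. By complex the median was −0.02 for complex I, 0.02 for complex II, 0.04 for complex III, −0.05 for complex IV (13 genes) and −0.02 for complex V. The other 77 genes lay between −0.41 (*Atp5e*) and 0.42 (*Ndufa8*), and for all 77 the 95% interval of the log2 fold change stayed between −1 and 1. For 56 of them it stayed between −0.5 and 0.5.

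In sgLkb1 libraries, 1 member fell against sgInert by edgeR's test, again *Cox6a2*, and none of the 78 rose (1.28% called, beside 5.78% of all genes, 2.81% that rose and 2.97% that fell). At an unadjusted p under 0.05 there were 9 among the other 77 genes, 6 of them higher, and for members higher in sgLkb1 limma voom called 0, DESeq2 1 and limma on log2(TPM + 1) 8. In either direction these 3 tests called 6.33%, 8.15% and 6.66% of all genes, and the share of all genes at the unadjusted p is not given here. The median log2 fold change was 0.05 over the members and −0.01 over all genes. It was −0.01 for complex I, 0.08 for complex II, 0.13 for complex III, 0.10 for complex IV and 0.03 for complex V. For 76 of the other 77 genes the interval stayed between −1 and 1, and the exception was *Atp5s*, which encodes coupling factor B of complex V, at −0.84 (95% interval −1.46 to −0.22, adjusted p = 0.11). The direct comparison of sgCebpa/b/d with sgLkb1 called 3 of 78 genes (3.85%, beside 5.96% of all genes), with 1 higher (beside 2.83%) and 2 lower (beside 3.12%), and the medians were −0.07 over members and 0.03 over all genes. Over the 16 alternative analyses the members' median against sgInert ran from −0.06 to 0.00 in sgCebpa/b/d, and from −0.03 to 0.27 in sgLkb1, where its sign changed.

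**Figure D1:**
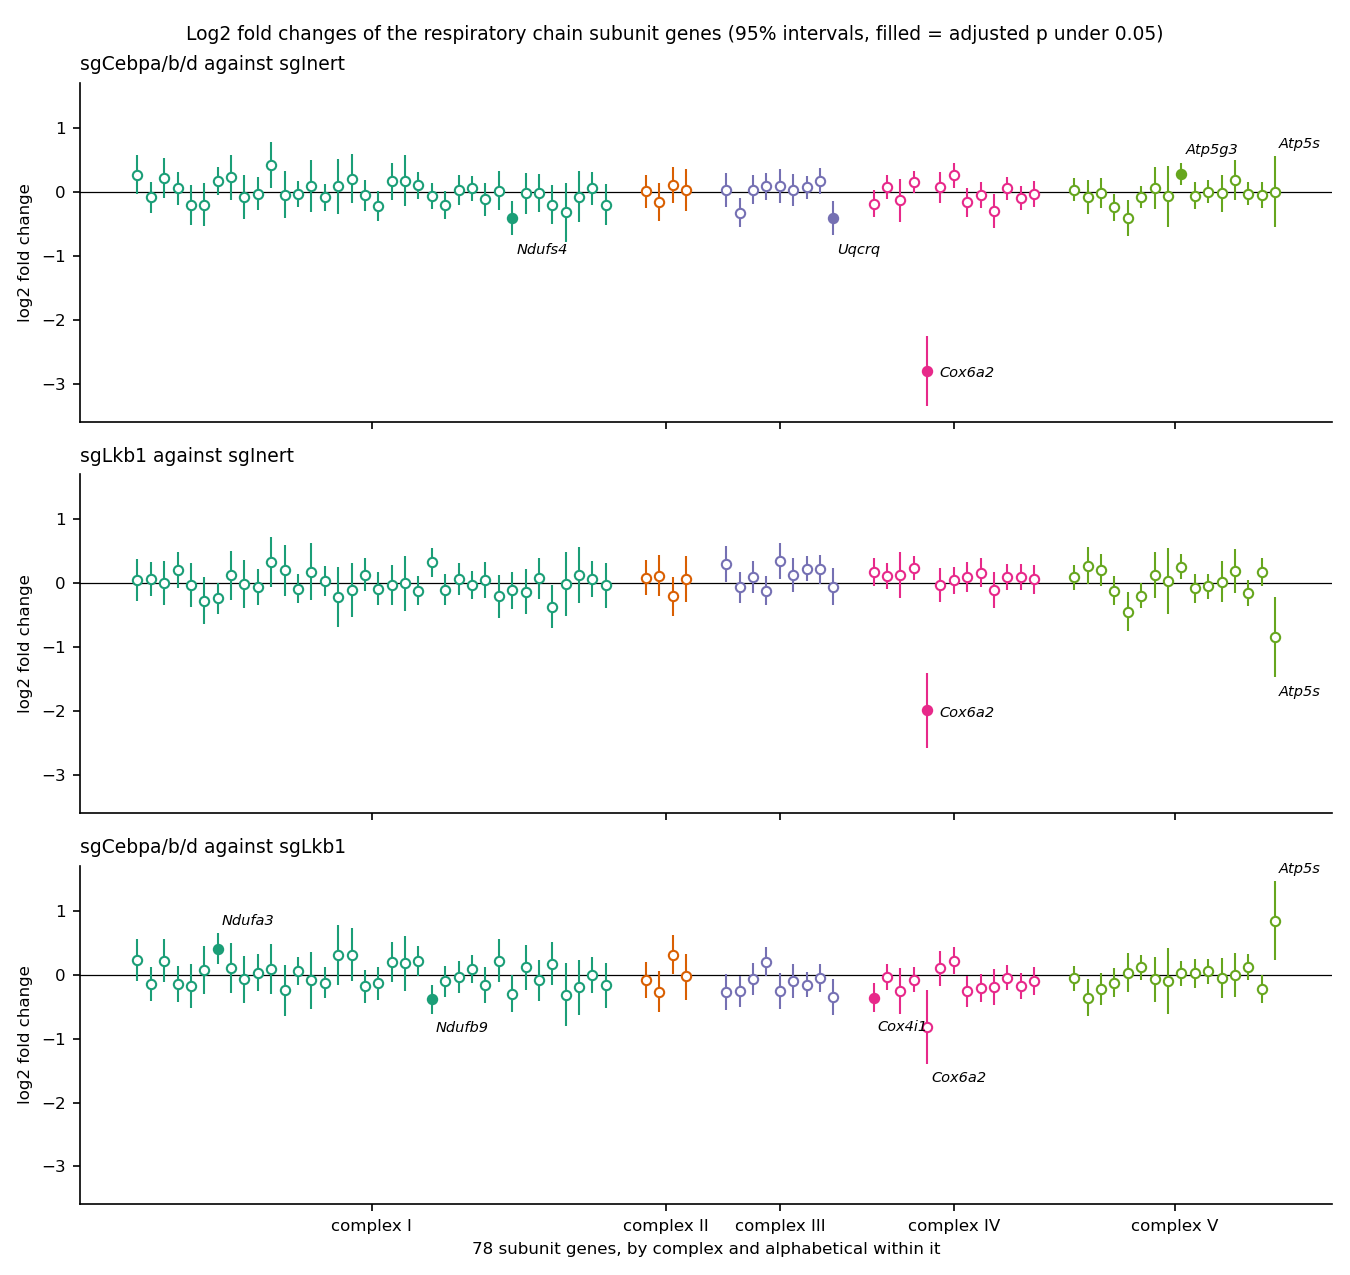
Log2 fold change (y axis) of each of the 78 subunit genes (x axis, by complex and in alphabetical order) in the 3 comparisons, with 95% intervals from the edgeR fit and filled points for an adjusted p under 0.05. *Cox6a2* sits at −2.80 and −1.99 against sgInert, and the other 77 genes lie between −0.84 and 0.85.

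*Cox6a2*, the muscle isoform of the COX6A subunit, had 120 to 279 counts in sgInert libraries (median 217). It had 16 to 105 counts in sgCebpa/b/d libraries (median 24), and 45, 68, 70, 81 and 110 counts in the sgLkb1 libraries. Every library of both targeted groups was below every sgInert library in log2 CPM (counts scaled to the library size with TMM factors, on a log scale). *Cox6a2* was the 1 member of 78 (1.28%) whose groups did not overlap in either comparison with sgInert, beside 3.37% of all genes for sgCebpa/b/d and 4.15% for sgLkb1. Between sgCebpa/b/d and sgLkb1 the groups of all 78 members overlapped, beside 5.08% of all genes that did not.

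The log2 fold change of *Cox6a2* was −2.80 in sgCebpa/b/d (SE 0.26, adjusted p = 3.88e-07), which is 6.98-fold lower than in sgInert. In sgLkb1 it was −1.99 (SE 0.28, adjusted p = 0.000151), or 3.97-fold lower. Its level in sgCebpa/b/d was below that in sgLkb1 by −0.81 (95% interval −1.39 to −0.24), which did not pass the threshold with edgeR (adjusted p = 0.0934) or limma voom and passed it with DESeq2 and with limma on log2(TPM + 1). Among MT-numbered libraries the log2 fold changes against sgInert were −2.41 (adjusted p = 7.25e-05) and −1.78 (adjusted p = 0.00119). Among female libraries they were −2.39 (adjusted p = 0.00016) and −1.99 (adjusted p = 0.000272). Some MT-numbered libraries share a title number, so these p-values measure the spread between libraries and not between animals. With libraries that share a number summed, *Cox6a2* was still called in both comparisons. Within the targeted groups, libraries without a number were lower, at 1.58 to 2.13 log2 CPM against 2.44 to 3.47 in MT-numbered sgCebpa/b/d libraries, and at 2.78 and 3.03 against 3.48 to 3.66 in sgLkb1.

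*Cox6a1*, the isoform of other tissues, did not pass edgeR's test in any comparison, and limma on log2(TPM + 1) called it in sgLkb1 against sgInert. It had 250 to 293 TPM in sgInert (median 261), 236 to 359 TPM in sgCebpa/b/d (median 298) and 339, 339, 352, 388 and 413 TPM in sgLkb1 libraries. In sgLkb1 each library was above every sgInert library on the TPM scale, but the log2 fold change of 0.24 (SE 0.09) from scaled counts had an adjusted p of 0.149. Of the summed TPM of both isoform genes, *Cox6a2* made up 24.5% to 33.7% in sgInert libraries, 2.49% to 8.19% in sgCebpa/b/d libraries and 5.57% to 9.6% in sgLkb1. The share in every sgInert library was above that in every library of the targeted groups.

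**Figure D2:**
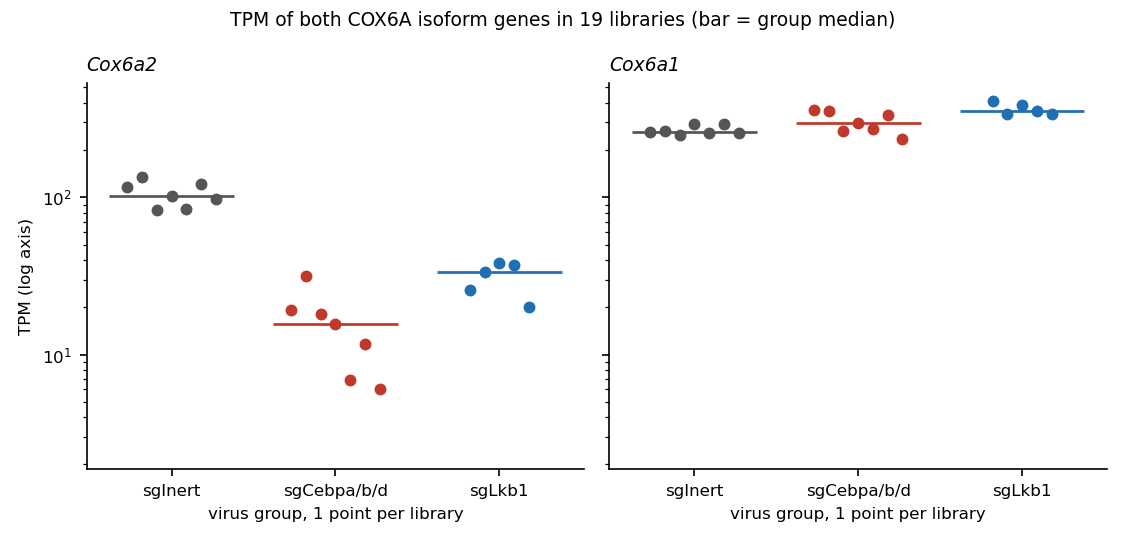
TPM on a log axis of *Cox6a2* (left) and *Cox6a1* (right) in each of the 19 libraries, by virus group, with bars at the group medians. *Cox6a2* lies at 83.5 to 134 TPM in sgInert, 6.05 to 31.4 in sgCebpa/b/d and at most 38.4 in sgLkb1, while *Cox6a1* stays between 236 and 413 TPM.

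*Cox6a2* is known as a muscle gene, so muscle markers were counted beside it. The contractile gene *Acta1* had 0 to 2 counts, *Myl7* 0 to 4, *Ckm* 0 to 10 and *Actc1* 0 to 27 in any library, with medians of 0 in sgInert. *Myh6* had 42 to 157 counts in sgInert and was lower in sgLkb1 by −1.5 (adjusted p = 0.000684) but not called in sgCebpa/b/d (−0.57, adjusted p = 0.102). *Ryr2*, a calcium release channel, was lower in sgCebpa/b/d by −3.70 (adjusted p = 1.12e-08) and had 0.65 in sgLkb1 (adjusted p = 0.123). The 10 muscle markers summed to 17.8 to 35.6 TPM in sgInert, 11.4 to 20.3 in sgCebpa/b/d libraries and 20.7 to 28.7 in sgLkb1. Of the 10, 4 passed the filter on low counts. Against sgInert, 2 of these 4 had a log2 fold change above 0 in sgCebpa/b/d (median −0.16) and 3 in sgLkb1 (median 0.37).

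Markers of other cells moved with the targeted groups as well. The 6 endothelial markers summed to 5.78 to 16.9 TPM in sgInert, 11.4 to 105 in sgCebpa/b/d libraries and 28.9 to 86.1 in sgLkb1. All 6 had log2 fold changes above 0 against sgInert in both targeted groups (medians 2.31 in sgCebpa/b/d and 2.14 in sgLkb1). By edgeR 5 of 6 were higher in sgCebpa/b/d and 1 (*Emcn*) in sgLkb1. In the same order DESeq2 called 5 and 2, limma on log2(TPM + 1) 2 and 4, and limma voom 0 in either. The 7 fibroblast markers summed to 4.04 to 51.7, 29.9 to 138 and 46.0 to 137 TPM, and edgeR called *Col3a1* and *Dcn* higher in both targeted groups. All 7 had log2 fold changes above 0 in both (medians 1.47 in sgCebpa/b/d and 1.70 in sgLkb1). DESeq2 called 2 and 2, limma voom 4 and 5, and limma on log2(TPM + 1) 4 and 3. Of the 11 alveolar type II and epithelial markers, *Abca3*, *Etv5*, *Lamp3* and *Sftpc* fell and *Krt18* rose in sgCebpa/b/d, while *Etv5*, *Lamp3*, *Sftpa1* and *Sftpc* fell and *Krt18* rose in sgLkb1. The 8 immune markers (5.17 to 71.8 TPM over all libraries) had 0 calls by edgeR among 5 tested (unadjusted p under 0.05 for 2 in each targeted group, and 1 call by DESeq2 in sgCebpa/b/d). The 5 erythroid markers (0 to 6.72 TPM) were too low to be tested, and of the 7 ciliated and club cell markers *Cyp2f2* was lower in sgLkb1. Their part in the difference of *Cox6a2* was not tested. In bulk RNA, fewer cells of a type and less RNA per cell cannot be told apart.

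The summed TPM of each complex gives the level of its subunit genes together, as a description with no test. Complex I summed to 3571.1 to 4141.7 TPM in sgInert, 3308.2 to 4171.0 in sgCebpa/b/d libraries and 3913.2 to 4910.4 in sgLkb1. Complex II gave 163.7 to 225.5, 133.8 to 222.1 and 195.6 to 255.2 TPM in the same order. Complex III gave 1292.8 to 1523.6, 1104.8 to 1600.2 and 1478.0 to 1781.4. The medians were highest in sgLkb1 for all 5 complexes. Complex IV summed to 3378.3 to 4234.3, 2988.1 to 4314.7 and 4017.4 to 5044.9 TPM, and complex V to 3578.7 to 4156.4, 2984.3 to 4358.6 and 4165.3 to 5009.5. Only for complex V was every sgLkb1 library above every sgInert library, and in all others the groups overlapped. The scale matters for this order. Values of log2(TPM + 1) placed the median of all 13986 genes at 0.18 in sgLkb1 against sgInert, where TMM-scaled counts placed it at −0.01, and the members' median was 0.27 and 0.05 on the same scales.

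**Figure D3:**
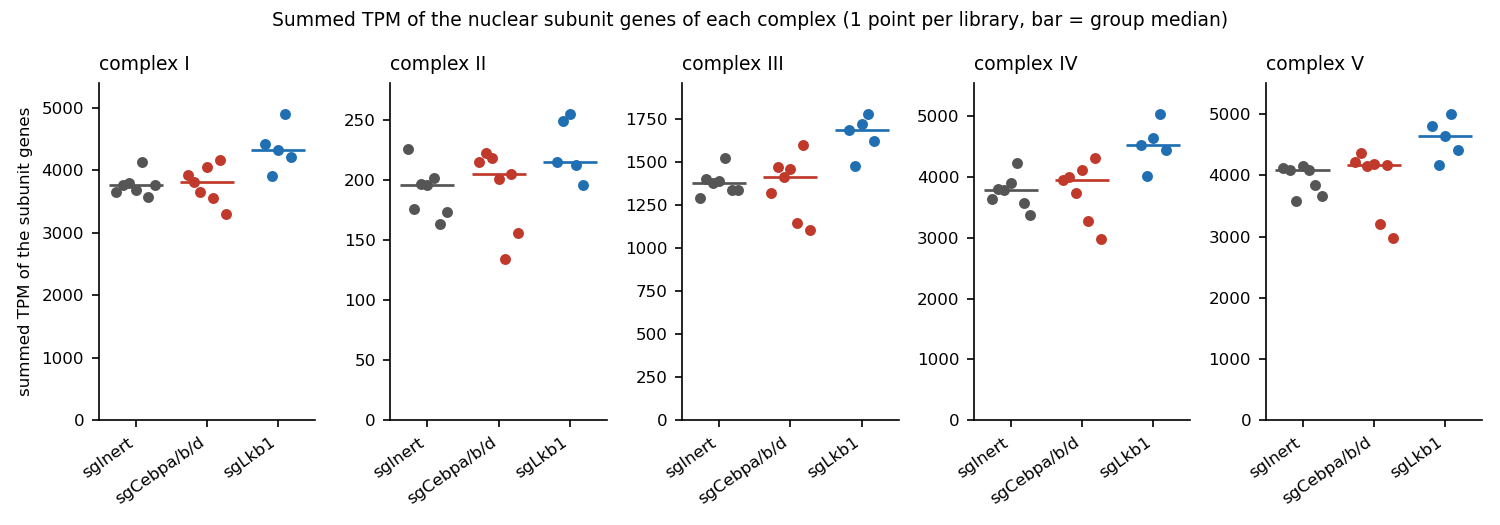
Summed TPM (y axis, from 0) of the nuclear subunit genes of complexes I to V in each library, by virus group, with bars at the group medians. The bars of sgLkb1 are the highest in each panel, from 215.0 TPM for complex II to 4648.4 for complex V, and the groups overlap except for sgLkb1 and sgInert in complex V.

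In complex I, 7 core subunits carry the flavin and the iron-sulfur clusters that move electrons. Of these, edgeR called 0 in any comparison, as did DESeq2 and both limma tests (unadjusted p under 0.05 for 1, in sgLkb1 against sgInert). Of all genes, edgeR called 10.1% in sgCebpa/b/d and 5.78% in sgLkb1 against sgInert, and 5.96% between sgCebpa/b/d and sgLkb1. With 7 genes, 0 calls do not stand apart from these shares. *Ndufs1*, the largest of them, had 53.0 to 70.5 TPM in sgInert, 47.6 to 74.1 in sgCebpa/b/d libraries and 54.4 to 65.3 in sgLkb1, and its log2 fold changes against sgInert were 0.06 and −0.03 (SE 0.10 for both). *Ndufs3*, *Ndufv1* and *Ndufv2* lay between −0.20 and 0.13 against sgInert. *Ndufs7* was at −0.20 and −0.36 (adjusted p = 0.476 and 0.227), and *Ndufs8* at −0.32 and 0.00 (adjusted p = 0.437 and 0.997). The median of the core subunits was −0.07 in sgCebpa/b/d and 0.00 in sgLkb1.

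Of the 29 accessory subunits of complex I, which surround the core and are needed for its assembly and stability, edgeR called 1 in sgCebpa/b/d against sgInert (3.45%, beside 10.1% of all genes), 0 in sgLkb1 (beside 5.78%) and 2 between sgCebpa/b/d and sgLkb1 (6.9%, beside 5.96%). In the same order 2, 1 and 3 had an unadjusted p under 0.05, DESeq2 called 1, 1 and 2, limma voom 1, 0 and 2, and limma on log2(TPM + 1) 0, 2 and 4. *Ndufs4*, whose loss in mice causes a mitochondrial encephalopathy, had 121 to 300 counts in sgInert, 78 to 302 in sgCebpa/b/d and 190, 221, 251, 298 and 384 in sgLkb1. The log2 CPM of sgCebpa/b/d (4.33 to 5.05) reached into that of sgInert (4.95 to 5.48). Its log2 fold change was −0.41 (SE 0.13, adjusted p = 0.0463), and −0.46 among MT-numbered libraries (adjusted p = 0.12).

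*Ndufb9*, of the distal membrane arm, had 5.49 to 5.69 log2 CPM in sgInert, 5.20 to 5.72 in sgCebpa/b/d and 5.63, 5.88, 5.96, 5.97 and 6.07 in sgLkb1. All but 1 of the sgLkb1 libraries were above every other library. Against sgLkb1, sgCebpa/b/d was at −0.39 (SE 0.11, adjusted p = 0.0336), and at −0.40 among MT-numbered libraries (adjusted p = 0.154). *Ndufa3*, of the proximal membrane arm, went the other way, with 4.63 to 5.07 log2 CPM in sgCebpa/b/d, 4.50 to 4.88 in sgInert and 4.37, 4.40, 4.41, 4.57 and 4.66 in sgLkb1. It was higher in sgCebpa/b/d than in sgLkb1 by 0.40 (SE 0.12, adjusted p = 0.0401), and by 0.39 among MT-numbered libraries (adjusted p = 0.195). *Ndufa8*, at 0.42 in sgCebpa/b/d (adjusted p = 0.138) and 0.33 in sgLkb1 (adjusted p = 0.37), and *Ndufa1*, at 0.27 in sgCebpa/b/d (adjusted p = 0.261), were among the highest log2 fold changes without passing the test.

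The 4 subunits of complex II, the citric acid cycle enzyme succinate dehydrogenase, had 0 calls by edgeR, DESeq2 and both limma tests (unadjusted p under 0.05 for 1, between sgCebpa/b/d and sgLkb1). With 4 genes, this does not stand apart from the share of all genes called by edgeR. That share was 10.1% in sgCebpa/b/d and 5.78% in sgLkb1 against sgInert, and 5.96% between them. *Sdha*, the flavoprotein, was at 0.01 and 0.09 against sgInert (SE 0.12 and 0.14), and *Sdhb*, the iron-sulfur protein, at −0.15 and 0.12. The membrane anchors *Sdhc* and *Sdhd* were at 0.11 and 0.04 in sgCebpa/b/d and at −0.20 and 0.07 in sgLkb1. *Sdhc* had the third highest log2 fold change of the members between sgCebpa/b/d and sgLkb1, at 0.31 (adjusted p = 0.255).

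In complex III, *Cyc1* (cytochrome c1) and *Uqcrfs1* (the Rieske iron-sulfur protein) were at 0.03 and 0.08 in sgCebpa/b/d and at 0.31 and 0.23 in sgLkb1 (adjusted p = 0.23 and 0.174). *Uqcrc1*, a core protein, had the highest log2 fold change of the members in sgLkb1, at 0.35 (SE 0.14, adjusted p = 0.153). *Uqcrq*, a small subunit that binds cytochrome b, had 130 to 308 counts in sgInert, 73 to 278 in sgCebpa/b/d and 270, 288, 291, 314 and 363 in sgLkb1. Its log2 CPM of 4.74 to 5.21 in sgCebpa/b/d overlapped with 5.00 to 5.82 in sgInert. The log2 fold change was −0.40 (SE 0.13, adjusted p = 0.0457), and −0.45 among MT-numbered libraries (adjusted p = 0.188).

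Among the other subunits of complex IV, *Cox4i1*, the common isoform of subunit 4, was called between the targeted groups. It had 5.87 to 6.45 log2 CPM in sgCebpa/b/d, 6.13 to 6.36 in sgInert and 6.24, 6.33, 6.38, 6.53 and 6.68 in sgLkb1. Against sgLkb1, sgCebpa/b/d was at −0.36 (SE 0.11, adjusted p = 0.0496), and at −0.56 among MT-numbered libraries (adjusted p = 0.0118). *Cox7a2l*, which joins complexes III and IV into supercomplexes, was at −0.05 in sgCebpa/b/d and 0.16 in sgLkb1.

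Complex V consists of the F1 head, a ring of c subunits in the membrane, a stalk and further membrane subunits. The F1 subunits *Atp5a1*, *Atp5b*, *Atp5c1*, *Atp5d* and *Atp5e* had 0 calls by edgeR and both limma tests, and DESeq2 called 1 in sgCebpa/b/d (unadjusted p under 0.05 for 2 in sgCebpa/b/d, 1 in sgLkb1 and 1 between them). With so few genes, 0 edgeR calls do not stand apart from the share of all genes called. That share was 10.1% in sgCebpa/b/d and 5.78% in sgLkb1 against sgInert, and 5.96% between them. *Atp5b* was at −0.08 and 0.27 against sgInert, and at −0.36 between sgCebpa/b/d and sgLkb1 (adjusted p = 0.152). *Atp5a1* and *Atp5c1* lay between −0.02 and 0.21 against sgInert, and *Atp5d* was at −0.24 and −0.12. *Atp5e*, the epsilon subunit, was at −0.41 and −0.44 (adjusted p = 0.0558 and 0.086). Its 145 to 346 counts in sgInert compared with 85 to 348 in sgCebpa/b/d libraries and 146 to 349 in sgLkb1.

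*Atp5g3*, one of 3 genes for the c subunit, had 6.73 to 7.13 log2 CPM in sgInert, 7.01 to 7.41 in sgCebpa/b/d and 7.07, 7.11, 7.14, 7.22 and 7.23 in sgLkb1. Both targeted groups lay above most sgInert libraries and overlapped with the highest of them. Against sgInert it was at 0.28 in sgCebpa/b/d (SE 0.09, adjusted p = 0.0366) and 0.26 in sgLkb1 (SE 0.09, adjusted p = 0.111). Among MT-numbered libraries it was 0.15 for both (adjusted p = 0.491 and 0.537). *Atp5s* had 2.6 to 4.10 log2 CPM in sgInert, 2.48 to 4.27 in sgCebpa/b/d libraries and 2.34 to 3.57 in sgLkb1, and was at 0.85 between sgCebpa/b/d and sgLkb1 (95% interval 0.23 to 1.47, adjusted p = 0.109).

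**Figure D4:**
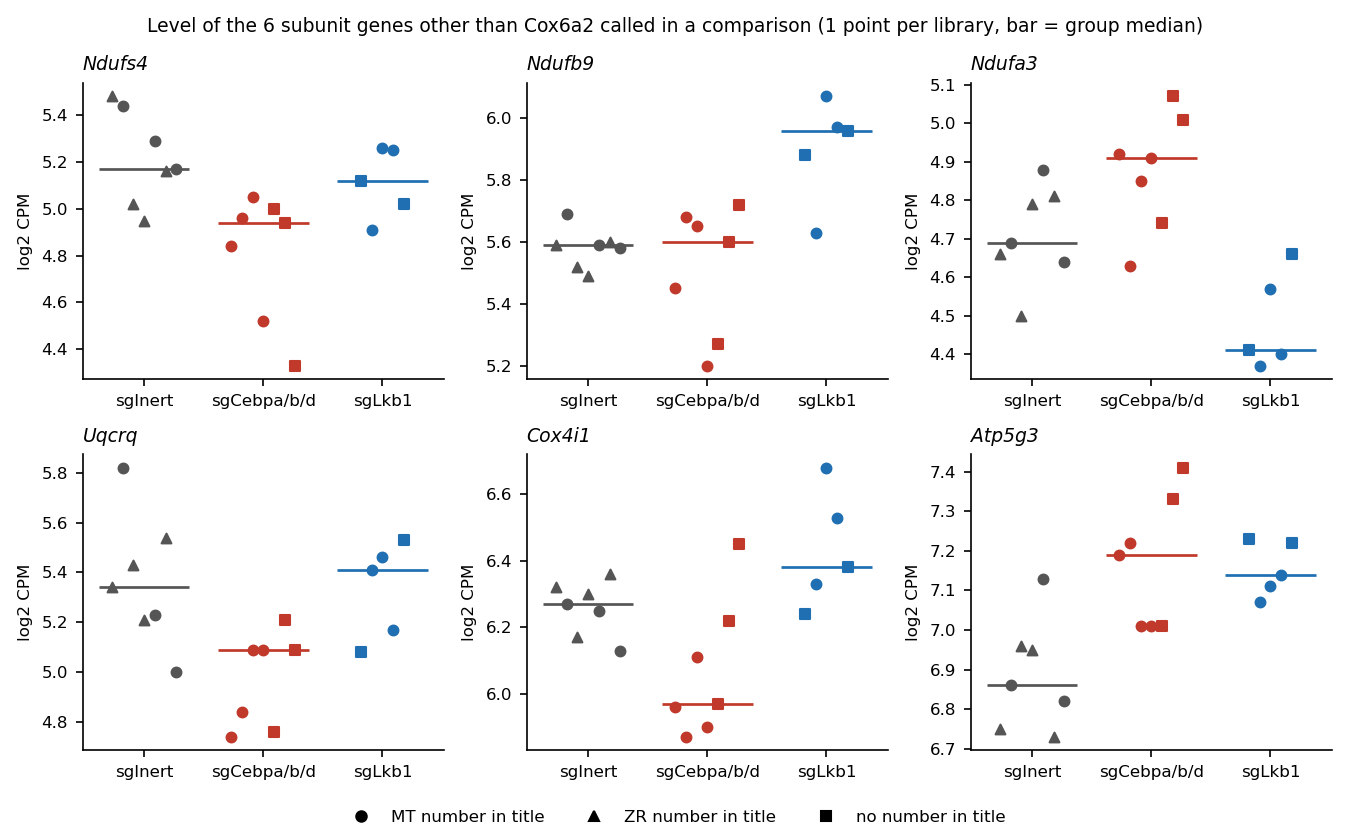
Log2 CPM (y axis, not from 0) of the 6 members other than *Cox6a2* that passed the test in a comparison, 1 point per library, with the shape for the number in the title and bars at the group medians. For each of the 6 genes the groups compared overlap, and the called log2 fold changes run from −0.41 to 0.40.

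These 6 calls were smaller than that of *Cox6a2* and less firm. *Cox6a2* passed the test in all 16 alternative analyses and when any 1 of the 19 libraries was left out, in both comparisons with sgInert. Of the 16 alternatives, *Cox4i1* was called in 11, *Ndufb9* in 8, *Atp5g3* in 7, *Ndufs4* and *Uqcrq* in 6 each and *Ndufa3* in 5, all with the same direction. With 1 library left out, *Cox4i1* was called in only 3 of 19 fits, *Ndufs4* and *Uqcrq* in 5 each, *Ndufa3* in 9, *Atp5g3* in 11 and *Ndufb9* in 12.

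Promoters were read as a description of what the members share. RefSeq windows of GRCm38.p6 from 250 bases before to 50 bases after the start were matched to 63 of the 78 members, and 15, *Cox6a2* among them, had no entry. Motifs were searched as exact letters on both strands. The letters GCGCANGCG, bound by NRF1, a factor known for respiratory chain genes, were in 31.7% of the 63 windows and in 7.03% of the windows of all 27025 symbols. CCGGAAG, of ETS factors such as GABP, was in 25.4% and 9.93%, and AAGATGGCG, of YY1, in 11.1% and 1.64%. TCAAGGTCA, of the ERR receptors, was in 3.17% and 0.466%, and TGACGTCA, of CREB factors, in 6.35% and 2.03%. TTGCNNAA, a C/EBP motif, was in 8 of the 63 windows (12.7%) and in 12.2% of all. The windows of *Atp5g3*, which was higher in sgCebpa/b/d, and of *Ndufs4*, which was lower, are printed with the matched letters in capitals.
Atp5g3 (chr2:73911277-73911576, minus strand, ERR and NRF1 letters): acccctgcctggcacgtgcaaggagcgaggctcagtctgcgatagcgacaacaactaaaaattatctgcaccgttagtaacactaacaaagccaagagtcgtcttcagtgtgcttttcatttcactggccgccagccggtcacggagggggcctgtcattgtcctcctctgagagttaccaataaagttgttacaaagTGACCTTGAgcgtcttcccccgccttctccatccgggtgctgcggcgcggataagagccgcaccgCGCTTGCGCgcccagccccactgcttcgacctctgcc
Ndufs4 (chr13:114388045-114388344, minus strand, YY1 letters): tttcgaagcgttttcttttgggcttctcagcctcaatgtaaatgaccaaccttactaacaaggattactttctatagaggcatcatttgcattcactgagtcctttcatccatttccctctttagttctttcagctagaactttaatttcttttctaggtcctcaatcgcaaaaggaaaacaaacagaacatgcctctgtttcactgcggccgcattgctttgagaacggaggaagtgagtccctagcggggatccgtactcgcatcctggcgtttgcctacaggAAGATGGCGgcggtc
Neither window held the C/EBP letters, and that of *Ndufa3* held none of the motifs.

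Genes that act with the respiratory chain were counted from lists. Of all genes, edgeR called 10.1% in sgCebpa/b/d and 5.78% in sgLkb1 against sgInert, and 5.96% between sgCebpa/b/d and sgLkb1. Of 45 assembly factors tested, which insert cofactors and put subunits together, 0 were called by edgeR in any comparison. Their medians were 0.10 in sgCebpa/b/d, 0.07 in sgLkb1 and 0.09 between them. At an unadjusted p under 0.05 there were 3, 4 and 5, DESeq2 called 1 in sgLkb1, limma voom called 0, and limma on log2(TPM + 1) called 1 between sgCebpa/b/d and sgLkb1. Of 17 electron carriers and exchangers tested, edgeR called 0 against sgInert (unadjusted p under 0.05 for 4 in sgCebpa/b/d and 2 in sgLkb1, DESeq2 3 and 0, limma voom 1 and 0, limma on log2(TPM + 1) 0 and 2). Between sgCebpa/b/d and sgLkb1, *Slc25a5*, an ADP/ATP exchanger, fell by 0.49 (adjusted p = 0.00427), and *Atpif1*, the inhibitor of ATP hydrolysis by complex V, rose by 0.53 (adjusted p = 0.0363). *Slc25a5* had 8.35 to 8.69 log2 CPM in sgInert, 7.93 to 8.49 in sgCebpa/b/d and 8.46, 8.77, 8.77, 8.91 and 8.91 in sgLkb1, and the difference among MT-numbered libraries was −0.32 (adjusted p = 0.0941). For *Atpif1* it was 0.59 (adjusted p = 0.0347). Of 35 refits (the 16 alternatives and each library left out), the call of *Slc25a5* was lost in 2 and that of *Atpif1* in 13 (adjusted p up to 0.187 and 0.24).

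Of 18 genes of pyruvate oxidation and the citric acid cycle, *Mpc1*, a mitochondrial pyruvate carrier, fell by 0.32 in sgCebpa/b/d against sgInert (adjusted p = 0.0391, and −0.43 with adjusted p = 0.0284 among MT-numbered libraries). *Fh1*, fumarate hydratase, had −0.60 for sgCebpa/b/d against sgLkb1 (adjusted p = 0.0256, and −0.43 with adjusted p = 0.136 among MT-numbered libraries). The call of *Mpc1* was lost in 11 of 35 refits (adjusted p up to 0.121) and that of *Fh1* in 9 (up to 0.344). The medians were −0.12 in sgCebpa/b/d, 0.01 in sgLkb1 and −0.11 between them. Of 5 hypoxia-linked genes listed 3 were tested and edgeR called 0 (unadjusted p under 0.05 for 1 in each targeted group, DESeq2 and limma voom 0, limma on log2(TPM + 1) 2 between those groups), and *Ndufa4l2*, the alternative to *Ndufa4* in hypoxia, had at most 1 count.

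Of 17 regulators of mitochondrial biogenesis tested, *Ppargc1a* and *Esrrg* were called. *Ppargc1a*, which encodes the coactivator PGC-1alpha, had 65 to 281 counts in sgInert, 36 to 193 in sgCebpa/b/d and 343, 372, 460, 472 and 600 in sgLkb1. For sgCebpa/b/d against sgLkb1 it had −1.58 (SE 0.36, adjusted p = 0.00877), with 3.55 to 4.92 against 5.51 to 6.45 log2 CPM and no overlap. The sgInert libraries were split by title, at 3.55 to 4.01 log2 CPM in MT-numbered and 4.91 to 6.04 in ZR-numbered libraries, and *Ppargc1a* did not pass the test against sgInert in sgCebpa/b/d (−0.70, adjusted p = 0.212) or sgLkb1 (0.88, adjusted p = 0.166). Among MT-numbered libraries it was 0.13 in sgCebpa/b/d (adjusted p = 0.807), 1.92 in sgLkb1 (adjusted p = 0.000121) and −1.79 between them (adjusted p = 9.32e-05). Some of these libraries share a title number, so n counts libraries and not animals. With libraries that share a number summed, *Ppargc1a* was not called between sgCebpa/b/d and sgLkb1 (edgeR adjusted p = 0.0515).

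**Figure D5:**
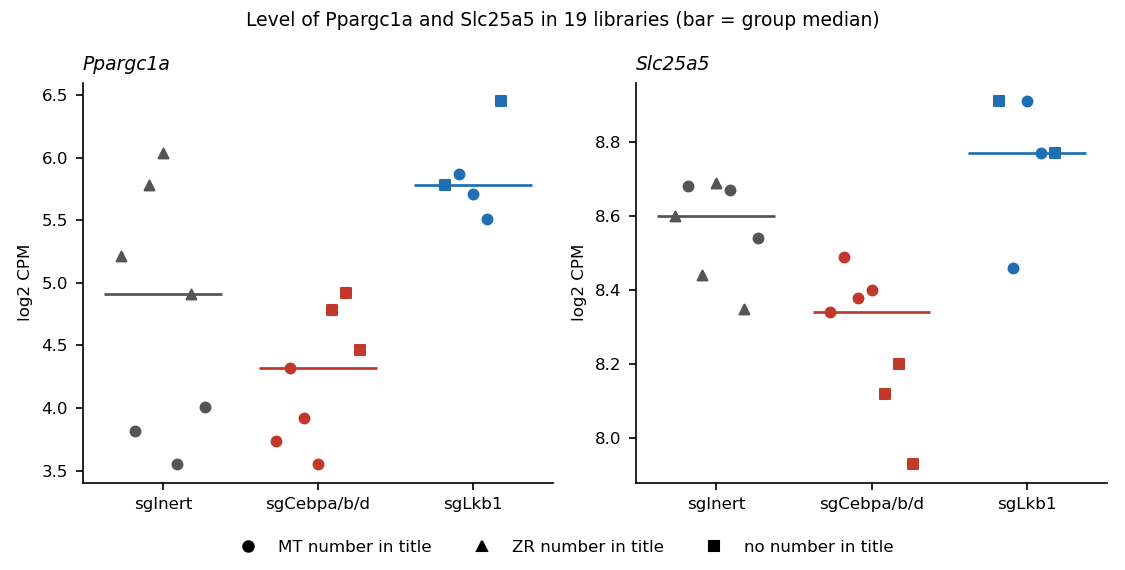
Log2 CPM (y axis, not from 0) of *Ppargc1a* and *Slc25a5* in each library, by virus group, with the shape for the number in the title and bars at the group medians. *Ppargc1a* of sgLkb1 lies at 5.51 to 6.45, above all sgCebpa/b/d libraries, and the sgInert libraries form a lower MT-numbered and a higher ZR-numbered set.

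*Esrrg*, an estrogen-related receptor, had 0 to 11 counts in sgInert and 2 to 54 in sgCebpa/b/d, and its log2 fold change of 2.78 (adjusted p = 0.0386) rests on these low counts. The call was lost in 14 of 34 refits, limma voom among them (adjusted p = 0.081), and the log2 fold change ran from 0.77 to 5.25 over the refits. *Ppargc1a* in sgLkb1 against sgInert, not called by edgeR, was called by limma voom (log2 fold change 1.2, adjusted p = 0.0225). The other regulators of the named set were not called by edgeR. *Nrf1* was at −0.04 in both targeted groups (SE 0.18 and 0.20), *Gabpa* at −0.19 and −0.21, *Esrra* at 0.26 and 0.54, and *Tfam*, the mitochondrial transcription factor, at 0.13 and 0.35. Sex was tested as an interaction with the sgCebpa/b/d effect, and of the 78 members 0 had an adjusted p under 0.05 with edgeR (7 had an unadjusted p under 0.05, and the smallest adjusted p was 0.15). The share of all genes past this test is not given here, so the count is not read as a result about the members. In sgCebpa/b/d the male libraries are those without a title number, so this test cannot separate sex from title.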

How the data were processed

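RNA of sorted neoplastic cells was amplified with the Trio RNA-Seq kit and sequenced as paired reads, and the authors aligned the reads to mm10 with STAR 2.6.1d and estimated gene levels with RSEM 1.2.30. The authors deposited expected counts, which are not normalized and need not be whole. They also deposited TPM values, corrected for length and scaled to one total, and effective lengths, which entered 1 alternative only. RSEM shares reads that match several genes between them, and 8 pseudogene symbols of these families had 0 to 5 counts. The authors' DESeq2 1.26.0 tables hold fold changes, p-values and normalized values for the 3 comparisons and were not used.

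Groups were taken from the sample labels. Expected counts were rounded, 13986 genes passed filterByExpr (minimum count 10, minimum total 15), and TMM scaling and edgeR's quasi-likelihood test were run on all 19 libraries in one model without a covariate (R 4.3.3, edgeR 4.0.16, limma 3.58.1, DESeq2 1.42.0, Python 3.11.15). A gene passed at an adjusted p under 0.05 (Benjamini-Hochberg, over all genes tested). SE is the log2 fold change divided by the square root of F, and log2 CPM used a prior count of 2. Genes named are members called in any comparison, the 3 highest and 3 lowest log2 fold changes of each, core subunits of complex I, complex II, catalytic subunits of complex III, tissue isoforms of complex IV, F1 subunits of complex V, called genes of the pathway lists, and *Ppargc1a*, *Nrf1*, *Gabpa*, *Esrra* and *Tfam*. *Cox6a1*, *Cox7a2l*, *Ndufa11*, *Itgad* and the genes under the count minimum were named after their values were seen. The members and lists were chosen with earlier results of these data known. On simulated data for sgCebpa/b/d against sgInert (13675 genes), edgeR called 47.5% of 99 genes changed by a log2 fold of 1, 74% of 96 changed by 1.5, and 5 of 13480 unchanged genes. No 2 libraries of a group agreed within sampling noise (chi-square per gene of 6.78 to 69.0 over 52 pairs). Labels do not say whether libraries without a number came from separate animals, so p-values measure the spread between libraries. Limits from counts of 0 cover counting error only. Coordinates are from GENCODE M21 on GRCm38 (mm10). Some items are not reported here.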

Additional observations from a re-analysis of the deposited data

Results flagged for a closer look

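Of 99 sets of libraries checked (28 named genes and 5 complexes in each of 3 groups), 6 had 1 library far from the others by Dixon's criterion, which chance gives in about 1 of 20 groups. Among sgInert libraries, *Atp5c1* had 7.22 log2 CPM in replicate 2 (6.64 to 6.84 in the others), *Atp5e* had 5.97 in replicate 6 (5.09 to 5.45), and complex I summed to 4141.7 TPM in replicate 5 (3571.1 to 3798.85). In sgCebpa/b/d, *Sdhb* had 3.86 log2 CPM in replicate 5 (4.43 to 4.66). In sgLkb1, *Atp5a1* had 8.06 in replicate 1 (8.22 to 8.25), and *Ndufs8* had 3.94 in replicate 2 (4.23 to 4.27). *Cox6a2* and the members called between groups were not among them.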

How the results depend on the processing

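The fall of *Cox6a2* passed the test in both comparisons with sgInert under all 16 alternatives (log2 fold change −2.95 to −2.39 for sgCebpa/b/d libraries and −2.29 to −1.66 for sgLkb1) and without any 1 library (−3.09 to −2.68 and −2.08 to −1.88). The other calls were lost in many alternatives, with no change of direction. For sgCebpa/b/d against sgInert, 4 members were called. With DESeq2, 2 rose and 4 fell (beside 13.0% of all genes called). With a minimum count of 30 (12.7%) and with sex as a covariate (12.3%), 1 rose and 4 fell. There were 2 with log2(TPM + 1) in limma (7.46%), with transcript length offsets (8.83%) and with libraries that share a title number summed (8.35%). There was 1 without a filter on low counts (4.83%), with title series as a covariate (6.62%) and in MT-numbered libraries only (8.55%). The count was likewise 1 without libraries that carry no number (6.26%), in female libraries only (4.98%) and with only the 2 groups compared (8.82%). For sgLkb1 against sgInert, 1 was called. There were 2 under upper quartile scaling (beside 5.84% of all genes), under DESeq2 (8.15%), with title series as a covariate (4.7%) and in MT-numbered libraries (6.97%). With log2(TPM + 1) there were 9 (6.66%). For sgCebpa/b/d against sgLkb1, 3 were called, with 11 with log2(TPM + 1) (beside 6.91% of all genes) and 5 with title series as a covariate (7.66%). There was 1 with length offsets (4.69%), with sex as a covariate (6.41%) and in MT-numbered libraries (6.98%). The count was likewise 1 without libraries that carry no number (3.23%) and in female libraries (8.57%). It was 0 without a filter (2.55%), with libraries that share a title number summed (3.28%) and with only the 2 groups (6.97%). The members' median moved in sgLkb1 against sgInert to 0.27 with log2(TPM + 1), −0.03 with title series and −0.02 in MT-numbered libraries, and to −0.26 between sgCebpa/b/d and sgLkb1 with log2(TPM + 1), a scale that also moved the median of all genes to 0.18 and −0.15. Leaving out 1 library at a time, the counts ran from 1 to 6, 1 to 2 and 0 to 3, and the medians from −0.04 to 0.01, 0.02 to 0.07 and −0.1 to −0.05, in the order sgCebpa/b/d against sgInert, sgLkb1 against sgInert and sgCebpa/b/d against sgLkb1. The first count was 1 without sgInert replicate 1, 2 or 6 or sgCebpa/b/d replicate 1 or 7, 2 without sgInert replicate 7, sgCebpa/b/d replicate 2 or 4 or sgLkb1 replicate 3, 4 or 5, and 6 without sgInert replicate 4. The second was 2 without sgLkb1 replicate 2 or 3. The last was 0 without sgCebpa/b/d replicate 1 or sgLkb1 replicate 4, and 1 without sgCebpa/b/d replicate 3, 4, 5 or 6 or sgLkb1 replicate 1, 2, 3 or 5. *Ppargc1a* between sgCebpa/b/d and sgLkb1 was called in 34 of 35 refits and lost with libraries that share a title number summed (adjusted p = 0.0515). With the replicate number as a block, 1, 1 and 0 members were called, beside 9.24%, 6.24% and 4.73% of all genes. Replicate numbers mark no shared animal, and the deviations of 17 same-numbered pairs correlated by −0.147 to 0.232, with 2 above 0.1, so the pairing has no basis in the design. The causes of these changes were not tested, other than fewer libraries or more genes tested by construction. Depth limits the genes with the fewest counts, and counts of 16 to 105 stand behind *Cox6a2* in sgCebpa/b/d.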
